A study of Rattus norvegicus with 6 samples.

Results

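A set of 8 genes that mark or regulate glucagon-producing α-cells, none of them a hormone gene, was measured in replicating and quiescent cells sorted from rat islets as β-cells. The 8 genes were the transcription factor genes Irx1, Irx2 and Pou3f4, the genes for secreted carrier proteins Gc and Ttr, the amino acid transporter gene Slc7a2, the imprinted gene Peg3 and the membrane protein gene Tmem27, which RefSeq now lists as Cltrn. They were picked by name, as every array spot that carried one of these gene names and was not a control, and all 8 of 8 were found, through 13 of the 45598 non-control probes and among 27103 gene names in all.

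Islets came from young adult male Wistar rats in 3 preparations, each pooled from 4 rats. They were cultured overnight at basal glucose with EdU, a thymidine analogue that is built into newly made DNA, from the day of isolation, and were then dispersed and fixed in paraformaldehyde. From each preparation 1 sample of EdU+ cells (replicating) and 1 sample of EdU- cells (quiescent) was sorted out of the same large, granular, Newport Green-bright gate, which selects zinc-rich β-cells. RNA was amplified as whole-transcriptome cDNA, labelled with Cy3 and hybridised to 1-colour arrays, 3 replicating and 3 quiescent. All values are normalised log2 intensities, and a log2 ratio is replicating minus quiescent, so that 1 is a doubling in replicating cells. The gate defines β-cells by light scatter and zinc dye and not by a hormone, and the study reported that fixation weakened the dye's signal. It checked sorted cells by staining, and nearly all in both fractions were positive for insulin and for C-peptide. From RNA of other islet hormones in some samples, it held that other endocrine cells were not fully excluded. Each sample is a pool of rats, and in such bulk samples more cells of a type cannot be told apart from more RNA per cell.

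α-Cells and β-cells arise from a common endocrine progenitor and keep their identities through different sets of transcription factors. The Iroquois factors IRX1 and IRX2 and the POU factor POU3F4 (BRN4) belong to the α-cell set, and POU3F4 binds the promoter of the glucagon gene. Vitamin D-binding protein (Gc) and transthyretin (Ttr) are best known as plasma carriers made by the liver, but islet α-cells also make them, and both serve as α-cell markers in islet expression studies. SLC7A2 carries arginine and other cationic amino acids into cells. TMEM27 (collectrin) is a membrane protein that is also found on β-cells, where it is shed from the surface.

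One array stood farthest apart before any comparison was made. The quiescent array of preparation 2 correlated with the other 5 arrays at Pearson's r of 0.654 to 0.830 over all probes, while the 10 pairs among the other arrays lay between 0.867 and 0.986. It carried 1583 spots marked as outliers by the scanner software, against 252 to 299 on each of the others. The quiescent array of preparation 1 came next, at r of 0.867 to 0.887 with the replicating arrays and the quiescent array of preparation 3. Pairs among those arrays lay between 0.943 and 0.986. The sort itself was visible in the data: 8 of 8 cell cycle genes measured (such as Mki67, Top2a and Plk1) were higher in replicating cells, with a mean log2 intensity of 11.73 to 11.79 on the replicating arrays and 8.15 to 8.49 on the quiescent ones. Of these, Mki67 did not pass the test used below without preparation 1 (log2 ratio 2.36) or 3 (1.45), nor Pcna without preparation 1 (1.58). The 9 β-cell genes found had means of 13.44 to 13.58 and 13.57 to 14.10.

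The probe of Gc is printed here because it gave the one gene called, and a pair of Peg3 probes because they gave smaller differences than the gene's brightest probe. All are 60 bases long, written 5′ to 3′ with every G and C in capitals, as values by base composition are given further on. The Gc probe matched rat build rn4 at chr14:20190531-20192356 on the plus strand, 1826 bases of genome for 60 bases of probe, so it is split over more than one exon. The Peg3 probes lie at chr1:65523415-65523474 and chr1:65524243-65524302, both on the plus strand, and whether each falls in coding or untranslated sequence was not analysed here. In the same build the probes of Irx1 (chr17:1396659-1396718) and Irx2 (chr17:744212-744271) lie on one chromosome, and those of Pou3f4 (chrX:99215664-99215723) and Tmem27 (chrX:51118728-51118787) on the X chromosome. The Ttr probe is at chr18:12413621-12413680, the Slc7a2 probes at chr16:54752462-54752521 and chr16:54761151-54761210, and the other Peg3 probes start at 65508969, 65525312 and 65528305 on chromosome 1.
Gc, probe A_43_P13995: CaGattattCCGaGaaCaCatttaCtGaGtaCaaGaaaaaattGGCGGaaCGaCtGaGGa
Peg3, probe A_43_P18448: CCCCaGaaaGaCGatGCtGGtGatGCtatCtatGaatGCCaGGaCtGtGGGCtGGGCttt
Peg3, probe A_44_P810115: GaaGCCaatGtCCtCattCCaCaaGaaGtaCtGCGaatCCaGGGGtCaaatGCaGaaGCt

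Of the 8 genes, 1 was called higher in replicating cells and none lower. A gene was called where limma's moderated test gave an unadjusted p no higher than 0.05 and the log2 ratio was 1 or more in size. The preparation was a block in the fit. The thresholds are those by which the study listed its differentially expressed genes, while its heat map used a stricter p. At these thresholds the study reported more genes, both up and down and mostly up, than the probes called here. The reason was not tested. The gene called was Gc. Over all 45598 probes the same rule called 4.44% higher and 4.18% lower, and a single call among 8 genes is not set apart from those shares. The split moved with the scaling: 1596 probes were called higher and 5862 lower with the arrays scaled to their 75th percentile, and 662 and 3193 with the scanner's processed signal so scaled, against 2023 and 1905. No probe of any gene had an adjusted p under 0.05 (0 of 45598 after Benjamini-Hochberg correction in limma, with 9.60% under an unadjusted 0.05), and none of the calls below passes that correction in this fit. Other settings did give such probes, 719 of them with 75th percentile scaling and 204 with cyclic loess, but no probe that represents one of the 8 genes was among them. The median log2 ratio of the 8 genes was 0.28, beside -0.07 over all probes.

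**Figure D1:**
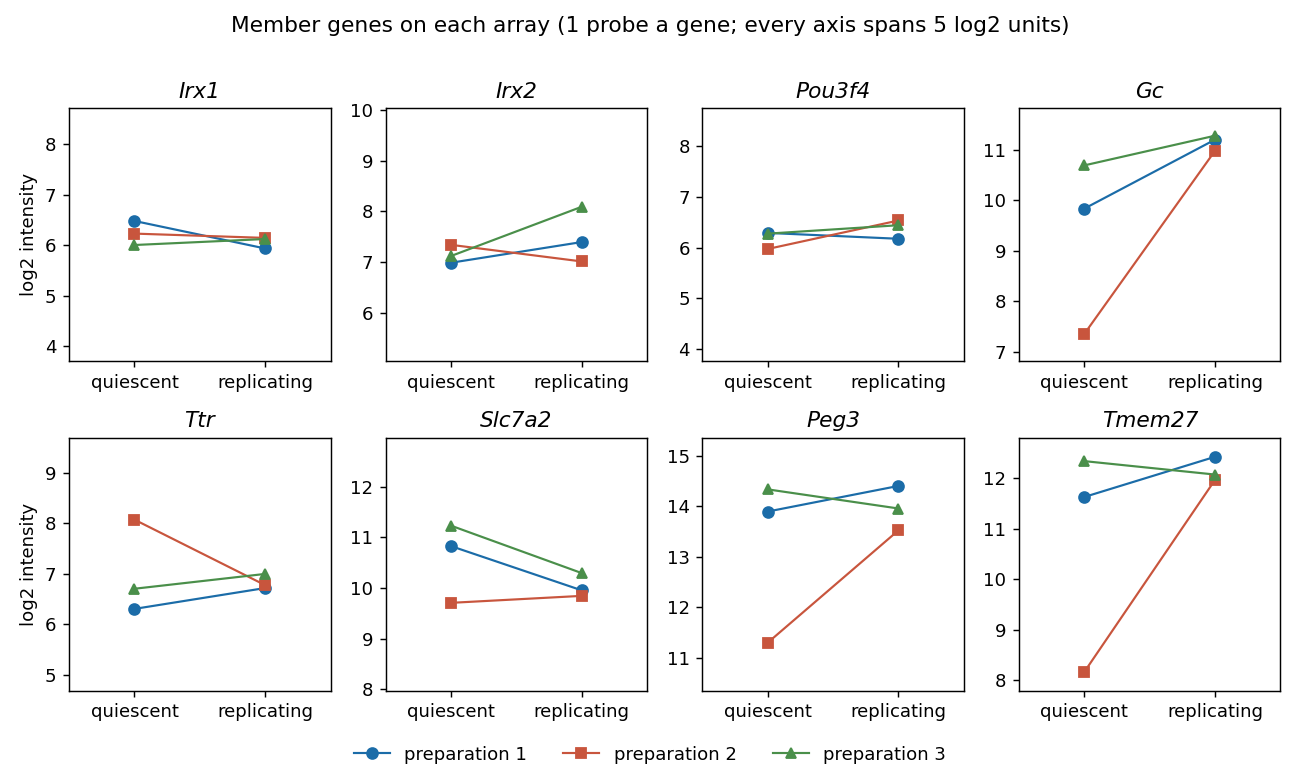
Normalised log2 intensity of the 8 genes (vertical axis, 5 log2 units in every panel) in quiescent and replicating cells, with a line joining the 2 samples of each islet preparation. Gc is the one gene in which all 3 lines go up and the groups do not overlap, from 7.36 to 10.69 in quiescent and 10.98 to 11.28 in replicating cells, and preparation 2 has the steepest line in Gc, Peg3 and Tmem27.

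Among the transcription factors none was called, and 2 of the 3 were at the edge of detection. Irx2 was the one read well above background on all 6 arrays. Its log2 intensity was 7.39, 7.01 and 8.09 in replicating cells of preparations 1, 2 and 3 and 6.99, 7.34 and 7.12 in quiescent cells. The replicating sample of preparation 3 stood above all others, the groups overlapped, and the log2 ratio of 0.35 ± 0.38 (SE) had an adjusted p = 0.662 in limma. Its 95% interval, from -0.62 to 1.33, leaves room for a change of more than a doubling.

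Irx1, the close relative of Irx2, had log2 intensities of 5.94, 6.15 and 6.13 in replicating and 6.48, 6.23 and 6.01 in quiescent cells. These values sit at the floor of the arrays, where the dimmest probes called well above background read 5.91 to 6.53. No replicating array read Irx1 well above background and 2 of 3 quiescent arrays did, and no fold is given for it because the bound it allows is under 1. Pou3f4 was similar, at 6.17, 6.54 and 6.44 in replicating and 6.29, 5.97 and 6.27 in quiescent cells, well above background on 1 and 2 arrays of the groups. For both genes the groups overlapped, and neither a rise nor a fall was detectable at this signal (log2 ratio -0.17 ± 0.33 and 0.20 ± 0.33, SE; adjusted p = 0.816 and 0.773 in limma).

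Their relatives outside the α-cell set were read more clearly, and none of them was called in this fit. The 4 other Iroquois genes measured, at 1 probe a gene, had log2 ratios of -0.45 to -1.56, all negative, with a median of -0.94. A second probe of Irx6 gave 0.09 beside -0.55 for the brighter one, and in preparation 3 the median of the 4 genes was 0.13. Irx5 had the largest difference (-1.56, 95% interval -3.12 to 0.01), from 6.62, 7.73 and 6.65 in replicating to 8.46, 10.61 and 6.59 in quiescent cells, so that the samples of preparation 3 were nearly equal. Irx3 differed by -1.32, and there the quiescent array of preparation 2 read 12.22 while the other 5 arrays read 7.20 to 8.03, so that without preparation 2 its log2 ratio turned to 0.11. Scaling the arrays to their 75th percentile in place of quantile normalisation brought calls of lower for both, at -1.68 and -1.32, and for Irx5 so did cyclic loess (-1.07) and leaving out preparation 3 (-2.36). Of the 3 POU class 3 genes, Pou3f2 had -1.17 (95% interval -2.94 to 0.59), with 11.98 on the quiescent array of preparation 2 and 8.42 to 8.96 on the others, and the median was -0.34.

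Gc, the gene for vitamin D-binding protein, gave the one call and the clearest separation. Its log2 intensity was 11.20, 10.98 and 11.28 in replicating cells, a narrow band, and 9.84, 7.36 and 10.69 in quiescent cells, which spread widely. Every replicating array was above every quiescent one, which held for 9.01% of the 44652 probes with a value on all arrays. The mean was 11.16 ± 0.15 (SD, n = 3) in replicating and 9.30 ± 1.73 (SD, n = 3) in quiescent cells.

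The log2 ratio of Gc was 1.86 ± 0.64 (SE), a 3.63-fold higher mean intensity, with a 95% interval from 0.22 to 3.50 (limma, adjusted p = 0.475). Within the preparations it was 1.36, 3.62 and 0.59, so all 3 of 3 went the same way and preparation 2 held most of the difference. Without preparation 2 the log2 ratio was 0.98 and the gene was not called (limma, adjusted p = 0.928). Without the quiescent array of preparation 2 alone, and with no block, it was 0.89, under the required size (limma, adjusted p = 0.652). It was also not called without preparation 1, where the remaining pairs gave 2.10 (limma, adjusted p = 0.966). An exact sign-flip permutation test over 3 pairs cannot give a two-sided p below 0.25, and Gc gave that value.

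The other secreted carrier did not follow Gc. Ttr was read by 1 probe printed in 10 spots, with log2 intensities of 6.72, 6.78 and 7.00 in replicating and 6.31, 8.07 and 6.71 in quiescent cells, close to the background of the arrays. The highest value was the quiescent array of preparation 2, and the log2 ratio of -0.20 ± 0.46 (SE) had an adjusted p = 0.852 in limma. Without preparation 2 its sign turned, to 0.35. Rbp4, whose protein travels in plasma bound to transthyretin and which islet δ-cells express, was called higher, at 7.48, 8.51 and 9.41 in replicating and 6.40, 7.15 and 7.39 in quiescent cells (log2 ratio 1.49, adjusted p = 0.475, limma), and stayed called when each preparation was left out (1.22 to 1.69), though not with 75th percentile scaling (1.07) or the processed signal (1.46). The 3 relatives of Gc on the array, Alb, Afp and Afm, had log2 ratios of -0.83, -0.80 and -0.61 and were not called. In a list of 7 genes made by hepatocytes, 2 were called higher, Gc itself and Serpina1 (log2 ratio 1.0022), beside 4.44% of all probes. Serpina1 was not called without preparation 1 (1.02) or 3 (0.90), nor with cyclic loess (0.93), 75th percentile scaling (0.78) or the processed signal (0.86).

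Slc7a2 was lower in replicating cells in 2 of the 3 preparations and was not called. Its brighter probe read 9.95, 9.85 and 10.29 in replicating and 10.83, 9.71 and 11.23 in quiescent cells, for ratios within the preparations of -0.88, 0.14 and -0.94. The second probe, which lies 8689 bases upstream of it on the minus strand of chromosome 16, gave -0.46, 0.26 and -1.37. Both probes thus had the same signs in each preparation, and their log2 ratios were -0.56 ± 0.37 and -0.52 ± 0.42 (SE; 95% intervals -1.51 to 0.39 and -1.59 to 0.55). In both, the samples of preparation 2 differed least. Leaving out its quiescent array, with no block, brought the log2 ratio of Slc7a2 to -0.9996 (adjusted p = 0.445, limma), just short of the required size.

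The 3 other cationic amino acid transporter genes differed among themselves. Slc7a3 was called higher, with 9.57, 8.98 and 9.53 in replicating and 7.90, 7.03 and 8.92 in quiescent cells (log2 ratio 1.41, adjusted p = 0.475, limma), but was not called without preparation 1 (1.28), with 75th percentile scaling (0.95) or after the correction for GC content described below (0.90). Slc7a1 and Slc7a4 had -0.23 and -0.60 and were not called.

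Peg3 encodes a zinc-finger protein expressed from the paternal allele, and its 5 probes gave different answers. By the rule used here the gene is represented by its brightest probe, which read 14.40, 13.53 and 13.96 in replicating and 13.90, 11.30 and 14.34 in quiescent cells. The low value is again the quiescent array of preparation 2, the groups overlapped, and the log2 ratio of 0.78 ± 0.56 (SE) had an adjusted p = 0.532 in limma. A second probe, A_44_P108728, was called higher, at 9.21, 8.83 and 8.89 against 7.79, 5.92 and 8.68 (log2 ratio 1.51, adjusted p = 0.475, limma). It was not well above background on the quiescent array of preparation 2, and it was not called without preparation 1 (1.56), without preparation 2 (0.81), with no block (1.51) or with the processed signal (1.96).

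The pair of Peg3 probes printed above gave small differences. A_43_P18448 read 11.59, 11.61 and 11.19 in replicating and 11.55, 11.12 and 11.20 in quiescent cells (log2 ratio 0.18, 95% interval -0.63 to 0.98). A_44_P810115 gave 0.20 (-0.70 to 1.10). The probe farthest upstream, A_44_P1117604, whose accession was not matched to Peg3 in the RefSeq table, gave -0.28 (-1.28 to 0.73). Counted by probe, 2 of the 13 probes of the 8 genes were called higher, 1 of Gc and 1 of Peg3, beside 4.44% of all probes. The called Peg3 probe is not the one that represents its gene.

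**Figure D2:**
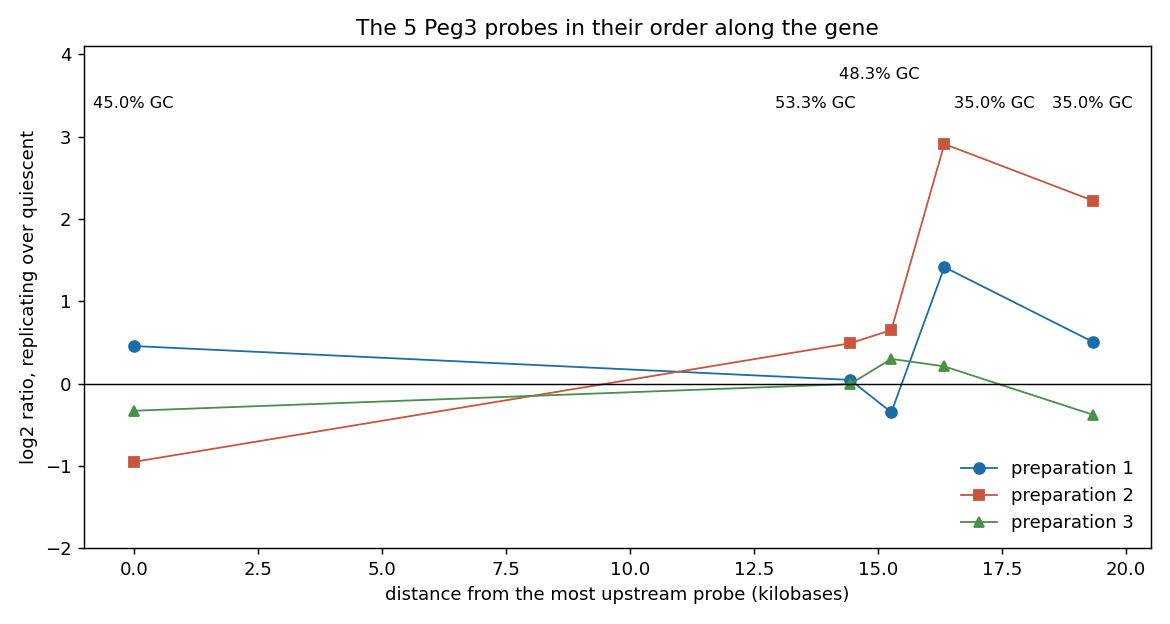
Log2 ratio of the 5 Peg3 probes in each islet preparation (vertical axis) against the distance from the most upstream probe (horizontal axis, kilobases), with the GC content of each probe written above. In preparation 2 the 2 probes with 35% GC gave 2.91 and 2.22, while the 3 probes with 45% to 53.3% GC lay between -0.95 and 0.65.

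Tmem27 had the second largest log2 ratio of the 8 genes, without passing the test. It read 12.42, 11.97 and 12.07 in replicating cells and 11.62, 8.17 and 12.33 in quiescent cells. One quiescent array, that of preparation 2, was far below the other 5, and the quiescent array of preparation 3 was above 2 of the 3 replicating ones. The log2 ratio was 1.44 ± 0.82 (SE, 95% interval -0.64 to 3.52, adjusted p = 0.489 in limma), made up of 0.80, 3.80 and -0.27. Without preparation 2 it was 0.26, and without preparation 3 it was 2.30 and was called (adjusted p = 0.205, limma).

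Of 5 relatives and partners of collectrin none was called. Slc6a18, an amino acid transporter whose surface expression in kidney depends on collectrin, had a log2 ratio of -0.88 (95% interval -1.91 to 0.15), and Snapin, which encodes a SNARE-associated protein, had 0.25. Among 6 other imprinted genes none was called. Peg10 had -1.36, with the quiescent array of preparation 2 at 11.43 and the other arrays at 7.55 to 8.81, and Zim1, a neighbour of Peg3 in its imprinted cluster, had 0.64 (95% interval -0.18 to 1.46).

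**Figure D3:**
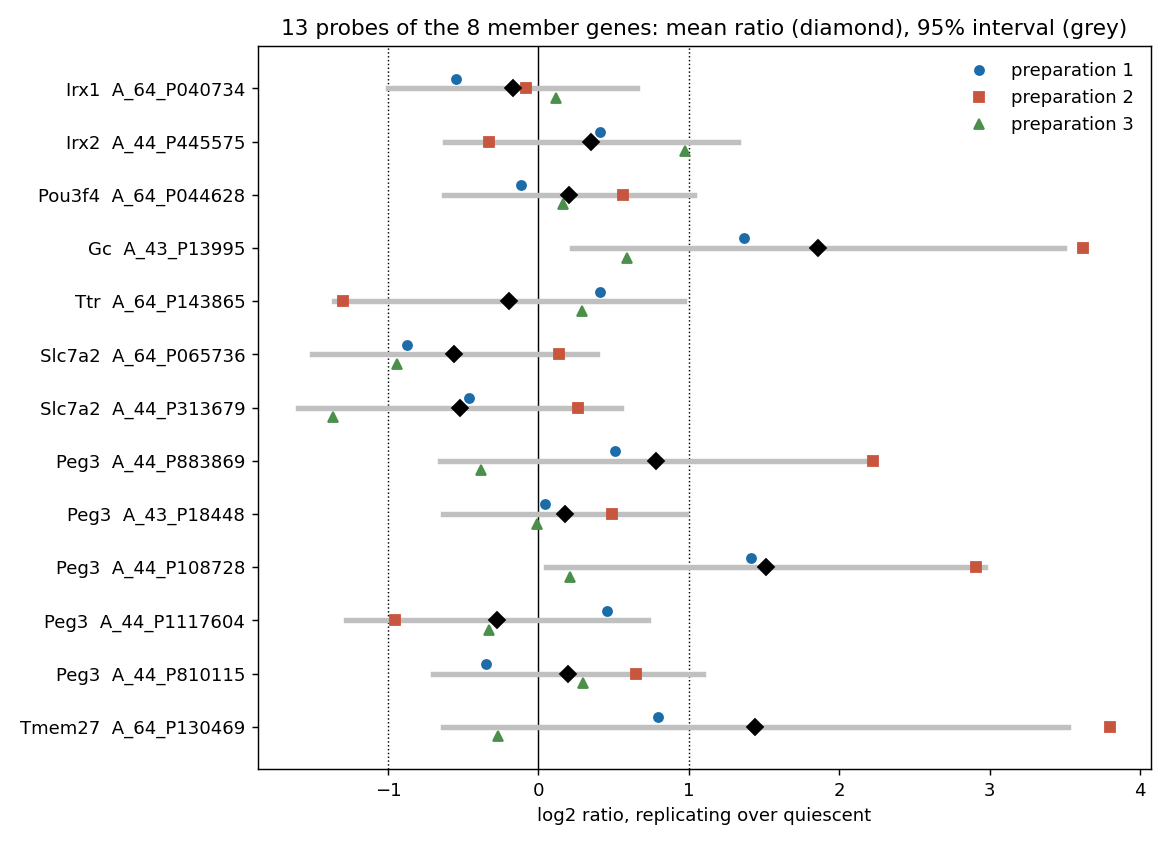
Log2 ratio (horizontal axis) of the 13 probes, 1 row each: black diamonds are the mean over 3 preparations, grey bars its 95% interval from limma, coloured symbols the single preparations, and dotted lines a ratio of 1 in either direction. Only the intervals of the Gc probe (0.22 to 3.50) and of Peg3 probe A_44_P108728 (0.05 to 2.97) lie above 0, and in both preparation 2 is the highest point.

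The base composition of the probes moved with the ratios of preparation 2. In the brighter 50% of all probes (mean log2 intensity above 8.09), the median log2 ratio of preparation 2 was 1.58 for the 3532 probes with over 30% and up to 35% GC and 0.76 for the 3322 probes with over 35% and up to 40%. It was -0.02 for the 10024 probes up to 45%, and -0.51 for the 4470 probes over 50%. Preparation 1 had the same order, with medians of 0.63, 0.39, -0.09 and -0.38. Preparation 3 had the opposite one, at -0.29, -0.18, -0.03 and 0.07.

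The members with large ratios in preparation 2 had low GC contents, but so did members without such ratios. The dimmer probes of Irx2, Pou3f4 and Ttr have the same 40% GC as the Gc probe. They had -0.33, 0.56 and -1.30 in preparation 2. Tmem27 and the 2 Peg3 probes at issue have 35% GC, and their ratios in preparation 2 of 3.80, 2.91 and 2.22 stand beside that median of 1.58. The Gc probe has 40% GC, and its 3.62 stands beside 0.76. Both Slc7a2 probes (36.7% and 38.3% GC) were below it, at 0.14 and 0.26. When the median deviation of probes of like GC content and brightness was taken off each array, an alternative chosen after seeing these data, the log2 ratio of Gc was 1.66 (limma, adjusted p = 0.437) and it stayed called. Under it Tmem27 had 0.94, Peg3 0.28 and Slc7a2 -0.76, none of them called, and Peg3 probe A_44_P108728 had 0.97 in place of 1.51 and was no longer called. The part of base composition in the uncorrected values was not tested further.

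**Figure D4:**
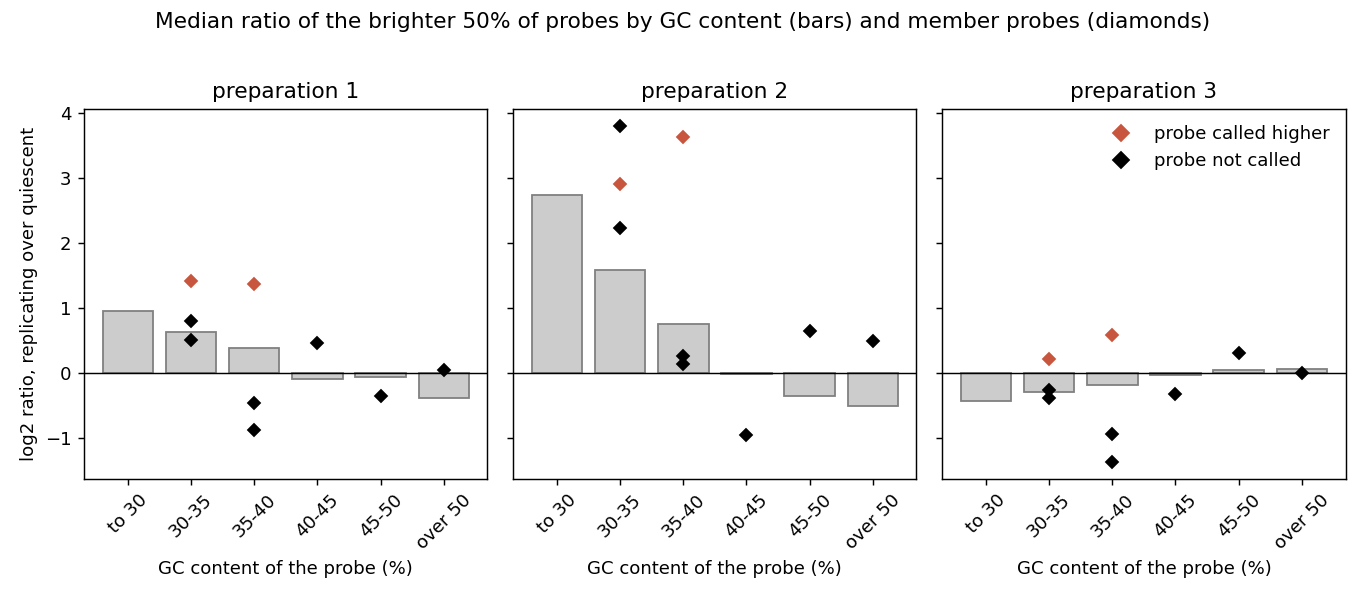
Median log2 ratio of the brighter 50% of all probes in 6 classes of GC content (bars) for each islet preparation, with the member probes among these as diamonds, red where the probe was called higher. In preparation 2 the bars fall from 2.73 at up to 30% GC to -0.51 over 50%, and the Gc probe (3.62) is farther above its bar (0.76) than the Tmem27 probe (3.80) is above its own (1.58).

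Beside the members, 11 other genes of α-cells were read, and 1 was called higher, where 4.44% of all probes were. That gene was Gcg, the glucagon gene, with log2 intensities of 14.23, 15.52 and 16.39 in replicating and 12.88, 12.25 and 13.84 in quiescent cells. Its log2 ratio was 2.39 ± 0.46 (SE, adjusted p = 0.457, limma), at 1.34, 3.26 and 2.55 in the preparations. Unlike Gc it stayed called under each of the 16 alternatives run, between 1.95 and 2.91. Its adjusted p was 0.0164 in limma under 75th percentile scaling. Several of the alternatives left its log2 ratio as it was, such as recomputing the values from the spot intensities or keeping outlier spots. None of the other 10, at 1 probe a gene, had a log2 ratio above 0.59 or below -0.57. Those were the values of F10, which had no value on the quiescent array of preparation 2, and Etv1. A second, dimmer probe of Loxl4 gave -1.24, with -4.00 in preparation 2, beside 0.28 for the probe used, and was not called. The median of the 11 was 0.11.

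The members and these genes did not all go one way. Gc and Gcg were higher in all 3 preparations. So, by small amounts, were the probes used for Loxl4 (0.23, 0.17 and 0.43) and Dpp4 (0.15, 0.10 and 0.09). Irx1, Irx2, Pou3f4, Ttr, Peg3 and Tmem27 changed sign among the preparations, and Slc7a2 was on the other side of 0 in 2 of 3.

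**Figure D5:**
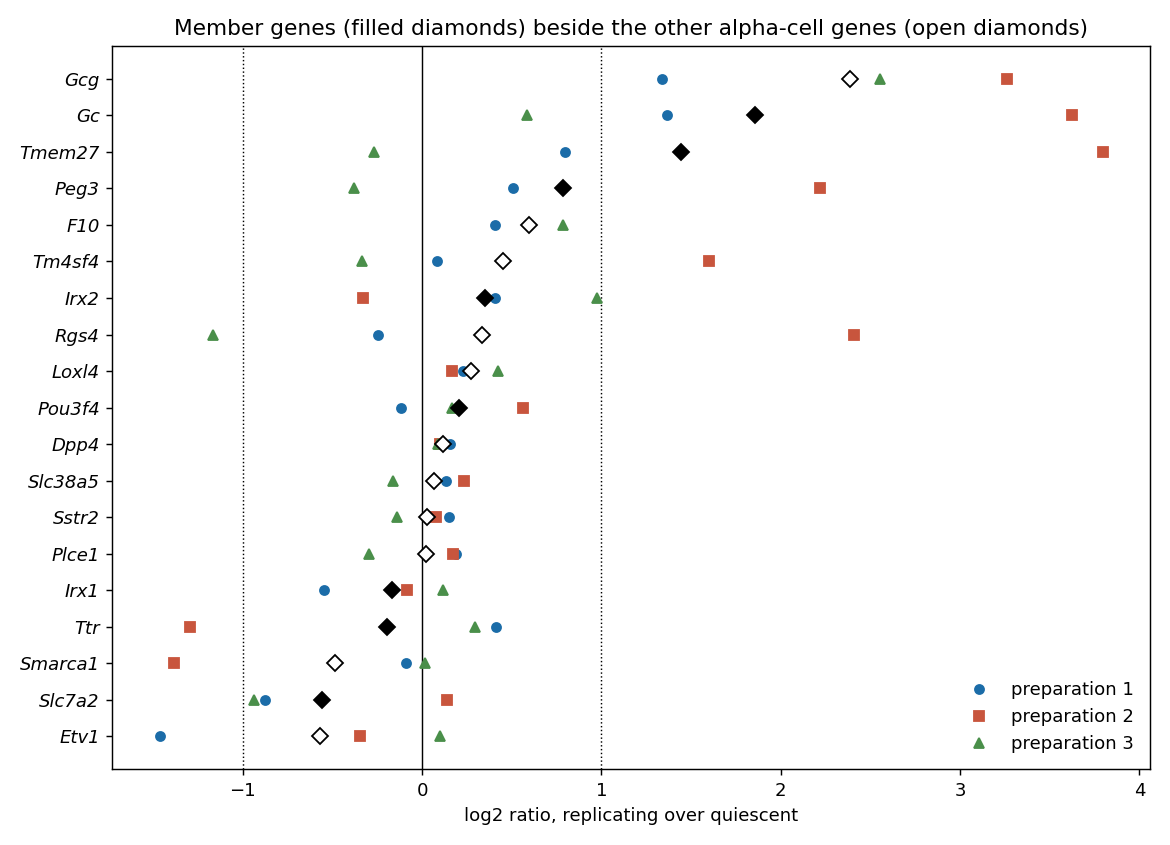
Log2 ratio (horizontal axis) of the 8 member genes (filled diamonds) and 11 other α-cell genes (open diamonds), ordered by their mean, with the single preparations in colour. F10 has no value in preparation 2, and Gcg (2.39) and Gc (1.86) are the 2 genes with a mean over 1 and all 3 preparations above 0.

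As a description, the profiles over the 6 arrays were compared by Pearson's r, over 20948 genes read well above background on every array. The genes most like Gc were Cbx3, Frmd8 and Fat1, each with r = 0.998 to 0.999, but 3153 genes had an r over 0.9 with it. Tmem27 (r = 0.966) and Peg3 (0.914) were among them, and Gcg (0.791) was not. By rank over the 6 arrays, Spearman's rho of Gc was 0.71 with Tmem27 and 0.60 with Peg3. Gc lay farthest from its median on quiescent arrays 1 and 2. With these left out, the r of Gc with Tmem27 over the other 4 arrays was -0.17 and with Peg3 it was -0.11. The high r thus depends on the omitted arrays, but some fall was likely in advance, as they were chosen by that distance. The genes most like Tmem27 were Zfp146, Zc3hav1 and Slc25a3. Peg3 came closest to Slc25a4, NEWGENE_1310139 and Grsf1, and both lists had r of 0.9975 or above.

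The remaining profiles were less common. Irx2 had an r over 0.9 with 13 genes, led by Tmem177, Pex11g and Hk1 (0.956, 0.949 and 0.941), and 0.548 with Gcg. Slc7a2 was most like Syt13 (0.986), LOC683899 and LOC102548812. Ttr was most like Ncoa5, Ctdp1 and Fhl2 (0.996 to 0.997) and had negative r with Gc (-0.75), Tmem27 (-0.88) and Peg3 (-0.89).

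Markers of other cell types also differed between the groups, and their part in the Gc result was not tested. Over all probes 4.44% were called higher and 4.18% lower. Of 8 fibroblast and stellate cell genes 4 were called higher (Col1a2, Col3a1, Mgp and Vim), with a list mean of 9.88 to 11.04 in replicating and 8.98 to 9.10 in quiescent cells. Among 5 δ-cell genes 2 were called higher (Sst and Rbp4; 8.47 to 8.98 against 7.88 to 8.46), as were 1 of 3 PP-cell genes (Ppy) and 2 of 6 immune genes (Cd68 and Cd74; 8.44 to 8.94 against 7.86 to 8.25). Duct and acinar lists had 1 call each (Spp1 of 6 and Prss1 of 8), and none of the 6 endothelial genes was called. The list means of the groups overlapped for PP-cell (9.13 to 9.63 in replicating, 8.64 to 9.87 in quiescent cells), duct, acinar and endothelial genes. Within the lists, 4 of 5 δ-cell, 2 of 3 PP-cell and 1 of 6 duct genes had a log2 ratio above 0, and the duct median was -0.33. Of the β-cell genes, 1 was called lower, Mafa (-1.01), while its dimmer probes gave -0.94 and -0.48 and were not called. Mafa was not called with 75th percentile scaling (-0.83) or the processed signal (-0.81). These calls differ in how they stood up to the alternatives: Col1a2, Col3a1 and Spp1 stayed called when each preparation was left out, with no block, under the other scalings and after GC correction. Mgp and Rbp4 stayed called without each preparation, but Mgp was not with no block (1.62), with the processed signal (1.36) or without the quiescent array of preparation 2 (0.90). Vim, Sst, Ppy, Cd68, Cd74 and Prss1 (0.88 to 1.62) and Mafa (-0.89) were not called without preparation 1, nor Mafa without preparation 3 (-0.87), nor Sst (0.58) and Cd68 (0.78) after GC correction. The 9 genes read for the α-cell marker list, which shares 6 genes with the members, averaged 8.90 to 9.35 in replicating and 8.08 to 8.92 in quiescent cells.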

How the data were processed

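The deposited files were 6 scanner files of Agilent Feature Extraction, version 10.7.3.1 per the file headers, with spot intensity and local background, and a table of log2 values that the authors made by normexp background correction and quantile normalisation in limma. Those log2 values were used, and recomputing them from the intensities with an offset of 50 gave the same values within 0.000245. The table's row numbers were thereby matched to spots. Of 58717 non-control spots, outlier-marked ones counted as missing, and each probe's spots were averaged. limma 3.58.1 in R 4.3.3 fitted group and islet preparation over all 45598 probes (two-sided, Benjamini-Hochberg), as in the study's methods, and was tested on simulated data. A gene with several probes is represented by the one with the highest mean. A probe counted as well above background where over 50% of its spots did. The 6 arrays limit the precision, and all were on 1 slide.

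Replicate numbers pair the samples, since each batch of islets gave 1 sample of either kind. Deviations of the pairs from the group means correlated at r of 0.0561, 0.242 and 0.258. Samples of different preparations gave -0.312 to 0.169. The highest of these, replicating 1 with quiescent 3, was above the value of pair 1, so the correlations do not bear out that pair. The members and lists were chosen with earlier results of these data known. Named genes are the members, those called in a list, the 2 in each list of related genes with the largest log2 ratio, Gcg, and the 3 most alike in profile. Irx6 and Loxl4 are named for their second probes, and Dpp4 for its direction in the 3 preparations. Some genes of the lists are not reported here and were left out of the list counts. G6pc2 and Serpina7 were listed but not found under these names. Probe positions and sequences are those of the scanner files (rn4), and gene parts were not analysed here. Current symbols are from RefSeq.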

Additional observations from a re-analysis of the deposited data

How the results depend on the processing

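Each of the 8 genes was refitted under up to 16 alternatives, which include a recomputation of the same values from the spot intensities. The number called lower and the number with an adjusted p under 0.05 in limma were 0 throughout. Over all probes, the number with an adjusted p under 0.05 was 0 as reported, and 719 with 75th percentile scaling, 204 with cyclic loess, 151 without the quiescent array of preparation 2 and no block, 99 with no block, 84 without preparation 2 and 61 with a variance trend. The number called higher, 1 as reported, was 0 with the processed signal scaled to the 75th percentile, with no replicate block, and without the quiescent array of preparation 2 and no block, and 0 to 2 when each preparation was left out in turn. The median log2 ratio of the genes (0.28) was 0.56 with an offset of 0, -0.56 with the processed signal, -0.064 with 75th percentile scaling, 0.43 with cyclic loess, 0.57 with dim probes removed and 0.14 without that quiescent array. It was 0.13 to 0.34 when each preparation was left out. Scaling to the 75th percentile moved the median of all probes from -0.07 to -0.39, and to -0.71 with the processed signal. Under these scalings Irx2 reversed to -0.11 and -0.34, and Pou3f4 to -0.017 and -0.80. With the processed signal Irx1 had -2.69 and Ttr -1.07, neither called. When each preparation was left out, Irx1 lay between -0.31 and 0.017 (reversed without preparation 1) and Ttr between -0.50 and 0.35 (reversed without preparation 2). Ttr reversed to 0.33 without the quiescent array of preparation 2, and Peg3 to -0.15. The causes were not tested.

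Without the replicate block, that is without pairing by preparation, the log2 ratio of Gc was again 1.86 with an adjusted p = 0.542 in limma, and no member was called. Over all alternatives Gc lay between 0.89 and 2.49 (adjusted p 0.171 to 0.966), with 1.55 for the processed signal. Signal over background limits Irx1, Pou3f4 and Ttr, and 3 pairs limit the rest.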
